A study of Mus musculus with 12 samples.

Results

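The 39 Hox genes of the mouse lie in 4 clusters, and their H4K8ac peaks were taken from sorted oligodendrocyte progenitor cells (OPCs) of the forebrain at 2 ages. H4K8ac is acetylation of lysine 8 on histone H4, a mark found at active promoters and enhancers. A Hox gene was any gene with a symbol of Hox, a cluster letter a to d and a number, and a member peak was one the authors assigned to such a gene or one lying between the outermost Hox genes of a cluster. By this rule 14 of 269580 peaks in 6 libraries were members, and the 39 genes were counted among 21631 protein-coding genes of RefSeq. Of the 14 peaks, 11 lay inside a cluster and 3 lay beyond the end of HoxD but were assigned to Hoxd1. A gene with no assigned peak was counted as unmarked, which says that no peak was called and not that the histone was free of the mark.

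OPCs are the dividing glial cells from which myelinating oligodendrocytes arise. Both groups were primary cells of PdgfrαH2BEGFP mice, in which a green fluorescent histone H2B marks cells that use Pdgfrα, a receptor gene of OPCs that fibroblasts and some vessel-associated cells also use. The neonatal group was taken at postnatal day 5 and the adult group at postnatal day 60, with 3 biological replicates of H4K8ac each. The labels give no other allele or treatment, and neither the sex nor any pooling of animals. The 6 input samples of the series were not analysed here.

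Hox genes encode homeodomain transcription factors that give cells along the head-to-tail axis their position. Within a cluster all members face the same way, and their order on the chromosome follows the order of their expression along the body: low-numbered (anterior) genes at the 3′ end are used from the hindbrain backwards, and high-numbered (posterior) genes at the 5′ end near the tail and in the limbs. In forebrain, which lies in front of the Hox domains, the clusters are a textbook target of Polycomb repression, which the Trithorax group opposes. HoxA spans chr6:52155367-52260880 (11 genes, minus strand), HoxB chr11:96194316-96368254 (10 genes, plus strand), HoxC chr15:102921131-103036856 (9 genes, plus strand) and HoxD chr2:74668225-74765142 (9 genes, plus strand), in GRCm38 coordinates, 492 kb in all.

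Promoter sequences are shown for 3 members because they set the one Hox promoter with a peak in every adult library beside unmarked ones. Each is the 250 bases upstream of the transcription start site (TSS), 5′ to 3′ on the gene's own strand, from RefSeq GRCm38.p6, with CpG dinucleotides in capitals. Hoxd1 (chr2:74762730-74762979, plus strand) is the marked promoter, Hoxa5 (chr6:52204588-52204837, minus strand) is a CpG-rich promoter with no peak in any library, and Hoxb1 (chr11:96365508-96365757, plus strand) is the unmarked paralogue of Hoxd1.
Hoxd1: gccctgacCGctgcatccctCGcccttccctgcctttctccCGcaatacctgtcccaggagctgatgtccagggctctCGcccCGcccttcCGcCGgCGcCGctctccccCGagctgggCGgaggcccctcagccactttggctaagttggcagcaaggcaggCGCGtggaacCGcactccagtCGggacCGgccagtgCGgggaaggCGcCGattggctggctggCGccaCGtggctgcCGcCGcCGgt
Hoxa5: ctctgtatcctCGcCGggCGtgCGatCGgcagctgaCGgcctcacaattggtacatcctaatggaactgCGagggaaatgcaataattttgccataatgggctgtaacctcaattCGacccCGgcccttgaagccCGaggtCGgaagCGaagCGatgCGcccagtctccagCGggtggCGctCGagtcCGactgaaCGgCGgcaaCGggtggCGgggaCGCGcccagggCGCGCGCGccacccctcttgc
Hoxb1: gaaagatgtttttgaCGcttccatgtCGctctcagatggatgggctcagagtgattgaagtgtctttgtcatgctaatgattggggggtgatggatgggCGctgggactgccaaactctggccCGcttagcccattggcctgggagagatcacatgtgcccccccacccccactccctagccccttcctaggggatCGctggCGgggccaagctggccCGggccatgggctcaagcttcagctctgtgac
The stretch upstream of Hoxd1 holds 24 CpG, that of Hoxa5 28 and that of Hoxb1 7. A high CpG content was therefore shared by the marked Hoxd1 and the unmarked Hoxa5.

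The lists of the libraries differed in length, and this bears on every count of members. Values of 3 libraries are given throughout in the order of replicates 1, 2 and 3. The neonatal lists had 9097, 31189 and 7353 peaks and the adult ones 72278, 72661 and 77002. Neonatal replicate 2 stood apart from the other neonatal libraries, and results that rest on it are given with and without it. Read numbers are not in the files, so the depth behind a missing peak is unknown. In chromatin from many cells, fewer marked cells and less mark per cell cannot be told apart. Of 8 OPC markers, 8, 8 and 7 carried a promoter peak at the neonatal age and 7, 7 and 6 at the adult age, Pdgfra, Cspg4, Olig1, Olig2 and Sox10 in all 6. Of 6 forebrain position genes, 0, 5 and 1 had a promoter peak at the neonatal age and 3, 2 and 1 at the adult age. Of 7 hindbrain and spinal cord genes, 1, 2 and 1 did at the neonatal age and 2, 2 and 2 at the adult age, and the 4 Hox genes on that list, Hoxa2, Hoxb2, Hoxa3 and Hoxb3, had none.

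Across both ages, 36 of the 39 Hox genes had no assigned H4K8ac peak in any library. A promoter peak, within 3000 bp of a TSS in the authors' annotation, was found on Hoxd1, Hoxa7 and Hoxa4, which is 7.69% of Hox genes. The background was 62.2% of protein-coding genes with a promoter peak in at least 1 library. Per library, Hox genes with a promoter peak numbered 0, 1 and 0 at the neonatal age against 1, 3 and 1 at the adult age. In the same libraries 26.4%, 53.3% and 23.5% (neonatal) and 56.3%, 54.4% and 55.2% (adult) of protein-coding genes had one. The adult mean exceeded the neonatal mean by 1.33 Hox genes, or by 0.667 without adult replicate 2 and 1.67 without neonatal replicate 2, and neonatal replicate 2 had as many as adult replicates 1 and 3. By role, 1 of 8 anterior genes (numbers 1 to 3), 2 of 15 central genes (4 to 8) and 0 of 16 posterior genes (9 to 13) had a promoter peak anywhere. Of the members at the cluster ends, Hoxa13, Hoxb1, Hoxb13, Hoxc4, Hoxc13 and Hoxd13 had no assigned peak in any of the 6 libraries. Hoxd1, at the 3′ end of HoxD, had assigned peaks.

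**Figure D1:**
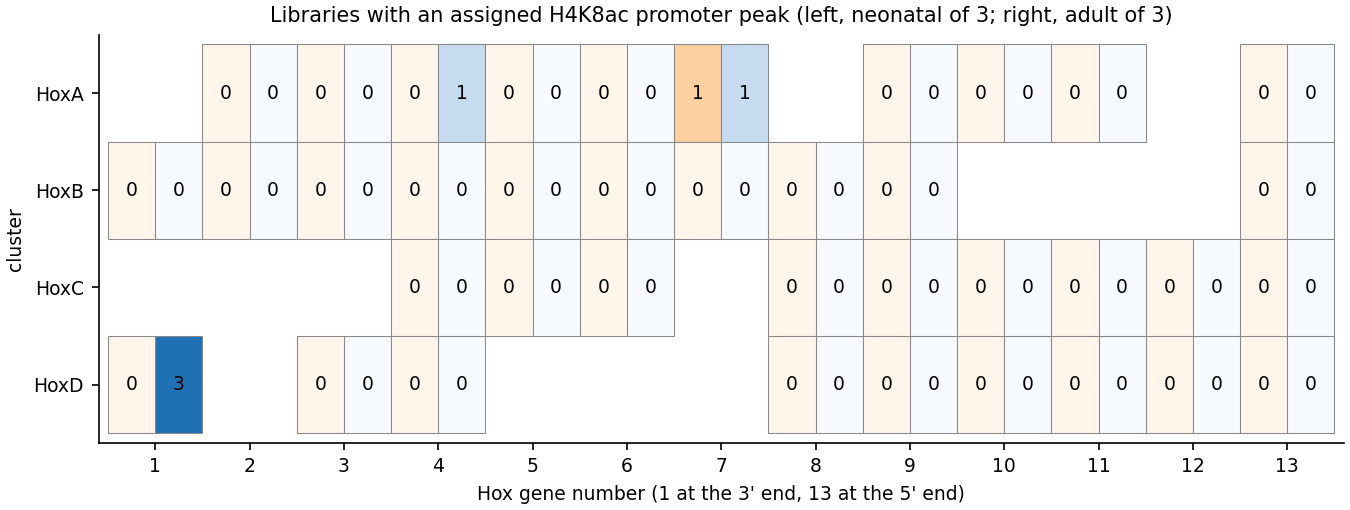
Number of libraries with an assigned H4K8ac promoter peak for the Hox genes, by cluster (rows) and gene number (columns). In each cell the left value counts neonatal and the right value adult libraries, each of 3, and positions without a value are left blank. Hoxd1 is the one gene with 3 adult libraries, and HoxB and HoxC hold only 0.

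Hox promoters were not poor in CpG, the sequence feature of many marked promoters. RefSeq windows of 300 bases, 250 before to 50 after the TSS, were found for 22 of the 39 genes. The median was 17.5 CpG per Hox gene (4 to 45) and 15 over 17274 protein-coding genes. At least 10 CpG were held by 16 of the 22 Hox genes (72.7%) and by 60.2% of protein-coding genes. Among protein-coding genes with at least 10 CpG, a promoter peak was present on 40.9%, 79% and 36.4% at the neonatal age against 81.7%, 79.4% and 79.9% at the adult age. Of the 16 Hox genes with that CpG content, 0, 0 and 0 had one in the neonatal libraries and 1, 1 and 1 in the adult libraries, Hoxd1 each time. The windows were also searched on both strands for AGGTCA, the core element bound by retinoic acid receptors, and TGATNNAT, a pairing site of Pbx and Hox proteins; these 2 motifs do not overlap by their letters. AGGTCA was in 7 of 24 Hox windows (29.2%) and in 14.6% of 21045 windows of protein-coding genes, and TGATNNAT in 4 (16.7%) and 7.36%. The Hoxd1 window held neither, that of Hoxa5 held AGGTCA and that of Hoxb1 held TGATNNAT. A match of letters describes the window and is not a measured site.

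**Figure D2:**
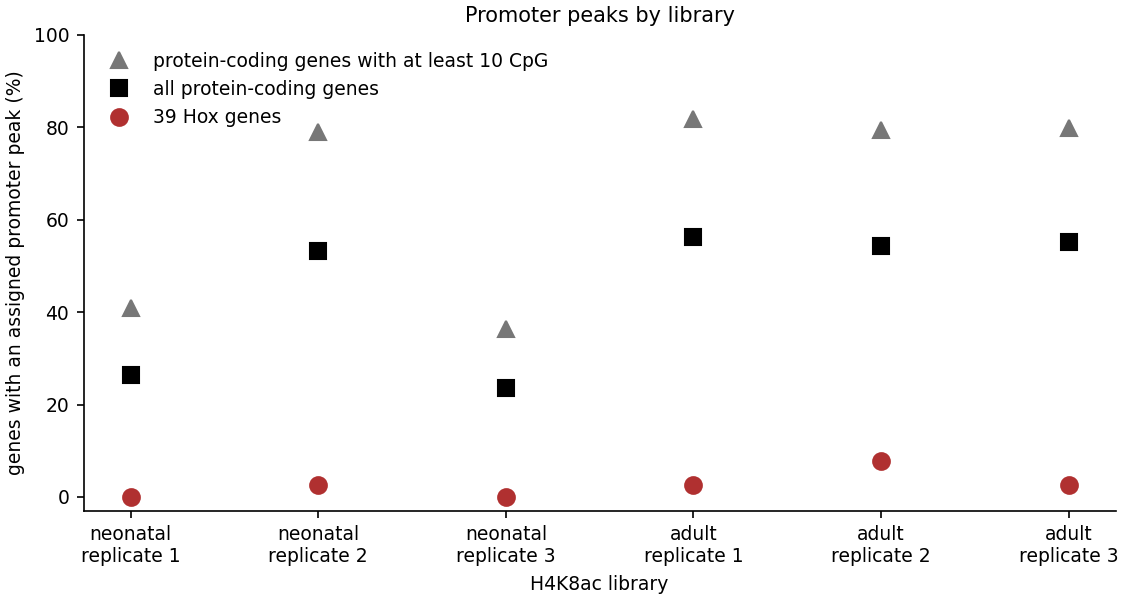
Share of genes with an assigned H4K8ac promoter peak (%, y axis) in each of the 6 libraries (x axis) for the 39 Hox genes (circles), all 21631 protein-coding genes (squares) and those with at least 10 CpG in the promoter window (triangles). Each point is 1 library. The Hox share lies below both others in every library, while both others are lower in neonatal replicates 1 and 3 than in the other 4 libraries.

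Between the ages, HoxD was the one cluster whose libraries did not overlap in the number of peaks inside. The whole lists did not overlap either, with 9097, 31189 and 7353 neonatal against 72278, 72661 and 77002 adult peaks. Of all merged regions, 20.4% had a peak in the 3 adult libraries and in no neonatal one, or 29.1% without neonatal replicate 2. Inside HoxD there were 0, 0 and 0 neonatal peaks against 3, 2 and 2 adult peaks. The difference in mean log2(peaks + 1) was 1.72 (p = 0.1 by a two-sided exact permutation test, which is the lowest value that 3 against 3 libraries allow, and 0.4 after Benjamini-Hochberg adjustment over the 4 clusters). Peaks covered 1.56%, 1.4% and 1.5% of HoxD in the adult libraries and none of it in the neonatal libraries, a difference of 1.49 percentage points against an SD of 0.0786 among the adult libraries (n = 3). Peaks called inside or assigned to HoxD numbered 3, 3 and 4 in adult replicates 1, 2 and 3. This permutation test cannot reach 0.05 with 3 against 3 libraries, so the separation is described by its size against the spread between libraries.

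HoxA had 0, 2 and 0 peaks in the neonatal libraries and 0, 2 and 0 in the adult libraries. The difference was 0 (exact permutation p = 1), and all 4 peaks came from neonatal replicate 2 and adult replicate 2. HoxB and HoxC had 0 peaks in all 6 libraries. Under each alternative way of counting that was run, among them a stricter q-value, clusters widened by 10 kb and peaks merged within 1000 bp, the difference between ages in HoxB and HoxC stayed at 0.

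**Figure D3:**
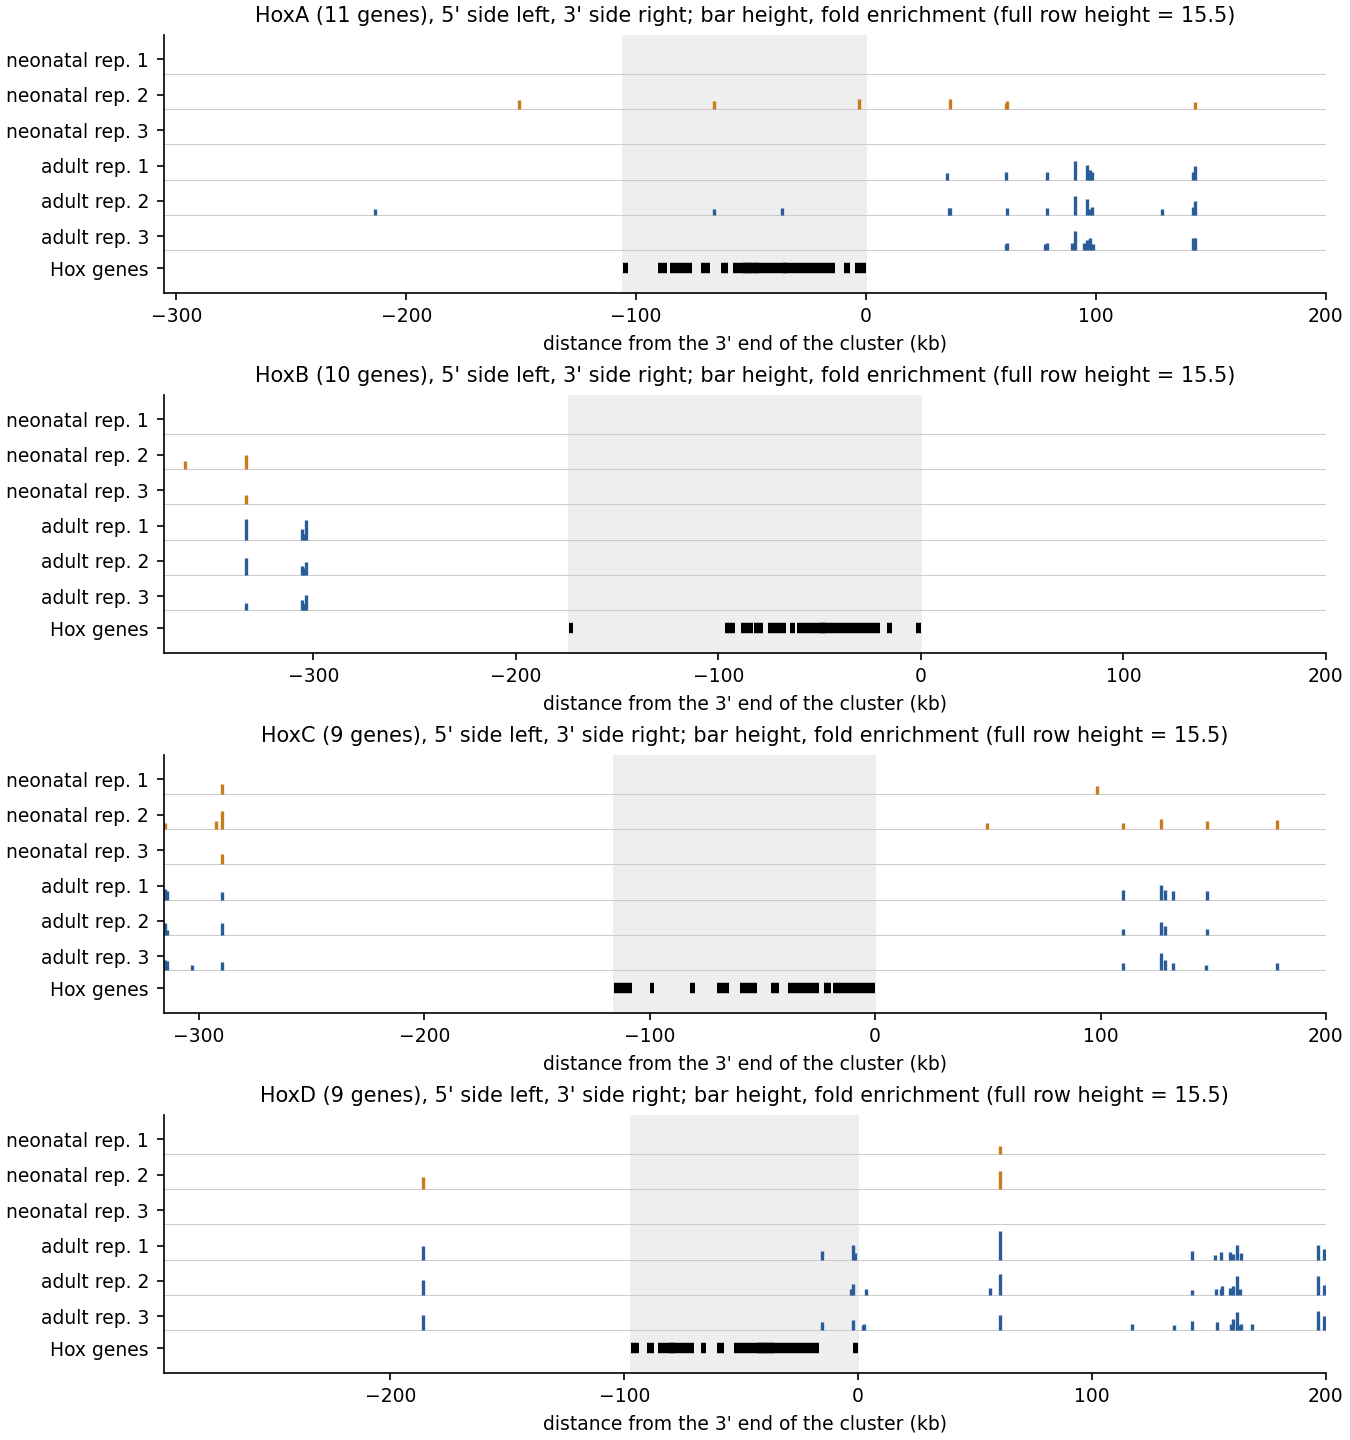
H4K8ac peaks in each of the 6 libraries (rows) over the 4 Hox clusters (grey) and 200 kb on each side, by distance from the 3′ end of the cluster in kb. Each bar stands at the centre of a region merged over the libraries, its height is the highest fold enrichment of that library there (linear, full row height 15.5), and black blocks are Hox genes. HoxB and HoxC hold no bar, HoxA holds bars in 1 neonatal and 1 adult library, and HoxD holds bars at its 3′ end in the 3 adult libraries.

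Hoxd1 (ENSMUSG00000042448.5), the 3′-most gene of HoxD and an anterior member of the family, carried a promoter peak over its TSS (chr2:74762980) in each adult library and none in the neonatal libraries. In adult replicate 1 the peak spanned 74762590 to 74763665 with a fold enrichment of 8.24 over the background, as the authors' list gives it. Adult replicate 2 had 74762535 to 74763665 with a fold of 6.32, and adult replicate 3 had 74762614 to 74763688 with a fold of 5.48. The 3 peaks shared 1052 bp and covered the whole upstream stretch printed above. Their mean fold was 6.68 ± 1.41 and their mean width 1094 ± 32.0 bp (SD, n = 3 each). This pattern, with every adult promoter marked and every neonatal one unmarked, held for 1 of 39 Hox genes (2.56%) and for 4.73% of protein-coding genes, so the Hox share did not exceed the background. Without neonatal replicate 2 it held for 22.1% of protein-coding genes and again for 1 Hox gene. The reverse pattern was seen on 0 Hox genes and 0.139% of protein-coding genes.

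Within its own lists the Hoxd1 peak was of middle strength for a promoter. It ranked 10010 of 72278 peaks in adult replicate 1, 12754 of 72661 in replicate 2 and 13805 of 77002 in replicate 3, within the top 13.8%, 17.6% and 17.9%. Among genes with a promoter peak it stood at 48.5%, 52.9% and 56.6% from the top. The median of each gene's highest promoter fold was 9.04, 7.5 and 7.88 in adult replicates 1, 2 and 3, above the Hoxd1 fold in each. Since the strongest 7353 peaks, the length of the shortest list, left Hoxd1 out in every library, its difference between ages was not detectable at that length. Each list was also limited to at most its strongest 31189 peaks, the length of the longest neonatal list and a limit chosen after seeing the data. The Hoxd1 promoter peak was then present in 3 adult and 0 neonatal libraries. Neonatal replicates 1 and 3 kept their 9097 and 7353 peaks, so list length was matched only for neonatal replicate 2.

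Smaller peaks around Hoxd1 did not recur at the same place. Adult replicate 1 had a further peak 916 to 1116 bp downstream of the TSS with a fold of 3.61. Adult replicate 2 had one 5401 to 5821 bp downstream with a fold of 3.4, beyond the end of the gene. Adult replicate 3 had 2 there, 4147 to 4467 bp downstream with a fold of 3.08 and 4645 to 4986 bp downstream with a fold of 3.7. These 4 lay low in their lists, at 85.1%, 88.7%, 77.4% and 62% from the top.

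**Figure D4:**
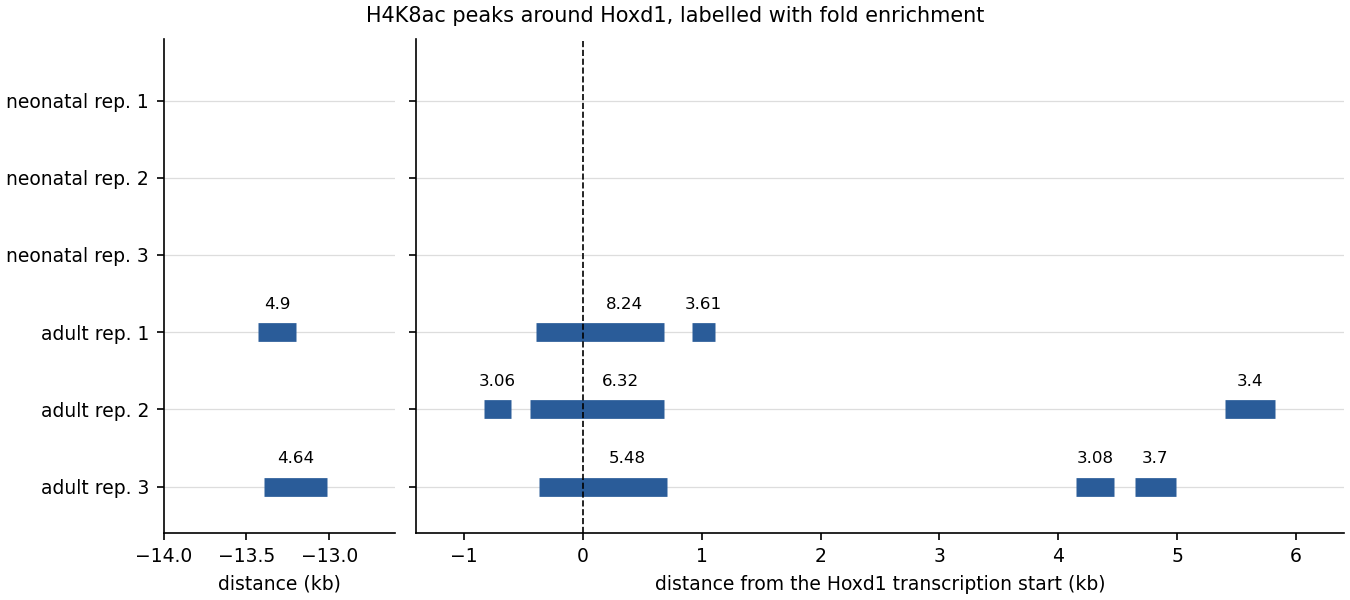
H4K8ac peaks of the 6 libraries (rows) around Hoxd1 by distance from its TSS in kb (dashed line, x axis broken), each bar drawn over the extent of a peak and labelled with its fold enrichment. The 3 adult libraries share the peak over the TSS with folds of 8.24, 6.32 and 5.48, and the neonatal rows are empty.

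Haglr, a long noncoding RNA gene read in the opposite direction to the HoxD genes and named here after its values were seen, took the other peaks in HoxD. Adult replicate 1 had a peak at chr2:74749550-74749780 with a fold of 4.9 and adult replicate 3 at chr2:74749585-74749965 with a fold of 4.64. In adult replicate 2 the Haglr peak lay elsewhere, at chr2:74762151-74762377 with a fold of 3.06, next to the Hoxd1 promoter peak and near the bottom of the list (97.1%). Haglr therefore had an assigned promoter peak in 3 adult and 0 neonatal libraries, but at a shared position only in 2. The peak of adult replicate 2 lay 519 bp from the Haglr start the authors used. That start falls within the Hoxd1 promoter peaks of all 3 adult libraries, so those peaks cover a start of both genes. Haglr was 1 of 16 cluster RNA genes with a RefSeq entry to show an adult-only pattern. Among protein-coding genes 4.73% showed this pattern, or 22.1% without neonatal replicate 2. The share over noncoding genes was not counted, so 1 of 16 has no like background here and is not read as a trait of these RNA genes. Hotairm1 was the other gene among the 16 with a promoter peak. The microRNA genes Mir10a, Mir10b, Mir196a-1, Mir196a-2, Mir196b and Mir615 had no assigned promoter peak in any library.

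The peaks in HoxA were assigned to central genes and to an antisense RNA gene. Hoxa7, Hoxa4 and Hotairm1 fall outside the naming rule and are named after their values were seen. Hoxa7, a central gene, had a peak in neonatal replicate 2 (chr6:52221476-52221678, fold 4.2) and one in adult replicate 2 (chr6:52221484-52221651, fold 3.27). Both lay upstream of the RefSeq start of Hoxa7, at 176 and 203 bp from the start the authors used. Hoxa4, another central gene, had a peak in adult replicate 2 alone (chr6:52192008-52192150, fold 3.97). A peak of neonatal replicate 2 at chr6:52158459-52158851, fold 5.32, was assigned to Hotairm1, an antisense RNA gene of the cluster. The 2 adult HoxA peaks stood at 71.2% and 84.3% from the top of their list, and neither was among its strongest 31189.

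In the authors' deposited table of differential sites, 2 sites lay inside a Hox cluster, both in HoxD and both higher in adult cells. The site in the Hoxd1 promoter (chr2:74763124-74763523) had a log2 fold change of 5.54, adult over neonatal, with an adjusted p of 1.3e-12 in the authors' deposited table, and all of its 400 bp lay within the peaks of the 3 adult libraries. The Haglr site (chr2:74749456-74749855) had a log2 fold change of 5.85 and an adjusted p of 2.05e-06 in the authors' deposited table. Such a direction was the rule genome-wide, since the authors' deposited table lists 79.6% of the 54838 sites tested, a number implied by its p-values, as higher in adult. A promoter site listed as higher in adult was found for 1 of 39 Hox genes and for 44.6% of protein-coding genes in the authors' deposited table. By size, the Hoxd1 site stood at the 95.8 percentile and the Haglr site at the 97.3 percentile of all listed sites in the authors' deposited table, where the median of positive sites was 2.42. The neonatal signal at both places is the denominator of these folds, and no neonatal library had a peak there.

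Taken over the 4 clusters together, the chromosomal surroundings held more peaks per length than the clusters in every library. HoxD taken by itself held more than its flanks in each adult library (3.1, 2.06 and 2.06 against 1.8, 1.9 and 1.9 per 100 kb). Those adult flanks were uneven, with 16, 18 and 18 peaks in the 500 kb on the 3′ side and 2, 1 and 1 on the 5′ side. HoxA also held more than its flanks in neonatal replicate 2 (1.9 against 0.9 per 100 kb). In the 500 kb on each side of the 4 clusters together there were 19, 70 and 13 neonatal and 115, 113 and 126 adult peaks. Per 100 kb of flank these were 0.475, 1.75 and 0.325 against 2.88, 2.83 and 3.15, and inside the clusters 0, 0.406 and 0 against 0.61, 0.813 and 0.406. For each cluster on its own, the flank density was higher in every adult than in every neonatal library (exact permutation p = 0.1 for each of the 4, and 0.1 after Benjamini-Hochberg adjustment over them). The means were 0.333 and 1.83 peaks per 100 kb around HoxA, 0.833 and 2.87 around HoxB, 2.03 and 5.23 around HoxC, and 0.2 and 1.87 around HoxD, neonatal and adult (n = 3 each). The whole lists separated the ages in the same way, with 9097, 31189 and 7353 neonatal against 72278, 72661 and 77002 adult peaks. The higher flank density is therefore not particular to these flanks. On the log2(peaks per 100 kb + 1) scale, inside minus flanks was -0.24 ± 0.31 in neonatal and 0.24 ± 0.27 in adult libraries for HoxD (SD, n = 3 each, exact permutation p = 0.1, 0.133 after Benjamini-Hochberg adjustment over the 4 clusters). The adult minus neonatal difference on this scale was -1.15 for HoxA (exact permutation p = 0.2, adjusted 0.2). HoxB and HoxC held no peak inside, so there this quantity only restates the flank density. The same holds for HoxD in the neonatal libraries, and its adult value rests on 3, 2 and 2 peaks inside. For the 4 clusters together the adult minus neonatal difference was -0.66 (exact permutation p = 0.1), with the empty HoxB and HoxC included.

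Merged over the libraries, the clusters held 7 regions and the flanks 169. Of the 7 inside, 1 was adult-only, present in the 3 adult libraries and absent from the neonatal ones, the Hoxd1 promoter, 4 were in a single library and 1 was in libraries of both ages. Of the 169 in the flanks, 32 were adult-only and 7 were in all 6 libraries. Genome-wide 20.4% of 98027 regions were adult-only, or 29.1% without neonatal replicate 2. The authors' deposited table lists 69 sites in the flanks, 68 of them higher in adult, with a median log2 fold change of 2.24. The other one, near Igf2bp1 on the 5′ side of HoxB, had a log2 fold change of -4.45 with an adjusted p of 3.95e-09 in the authors' deposited table and lay under a peak of each neonatal library and of none of the adult ones.

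**Figure D5:**
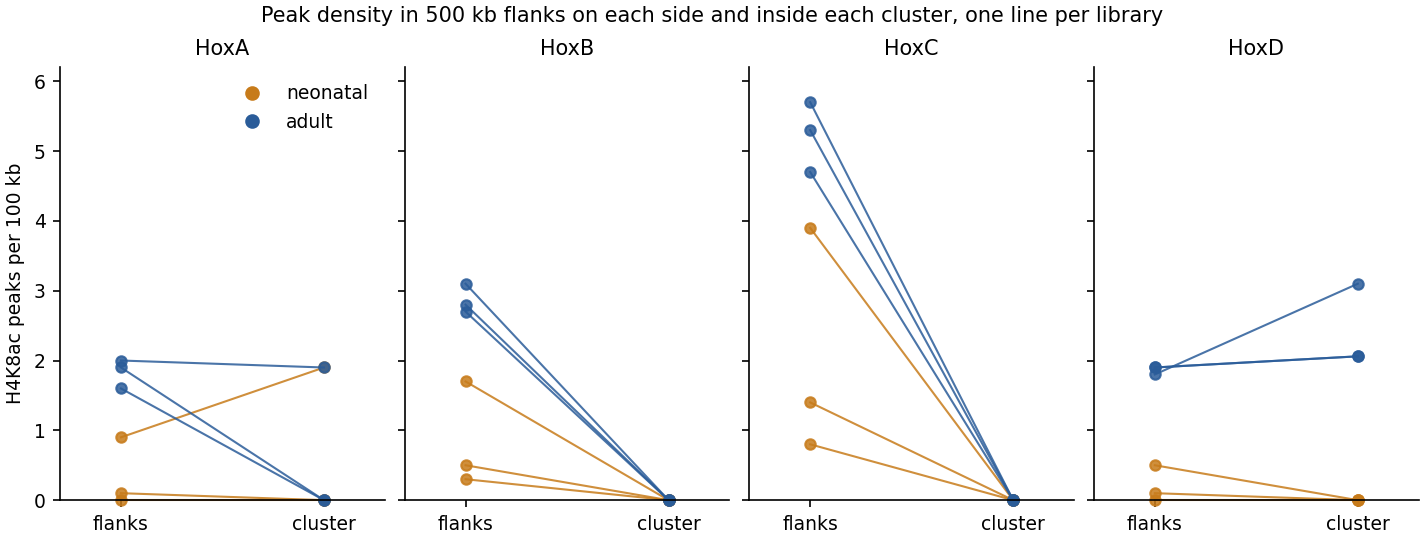
H4K8ac peaks per 100 kb (y axis) in the 500 kb flanks on each side and inside each Hox cluster, with 1 line per library, neonatal in orange and adult in blue. All HoxB and HoxC lines fall to 0 inside the cluster, and for HoxD the adult lines stay level or rise while the neonatal lines end at 0 (2 adult lines of HoxD coincide at 2.06 inside).

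HoxB and HoxC each lay within a single peak-free stretch in every library. Around HoxB it measured 797, 732 and 754 kb at the neonatal age and 698, 702 and 698 kb at the adult age. The median gap between adult peaks was 1.25 to 1.43 kb, and by length the stretch around HoxB ranked 604, 602 and 604 of all gaps in the adult libraries. It held 14 protein-coding genes in each adult library, the 10 Hox genes among them, and ranked 68, 70 and 70 of all gaps by that number. The flanking genes Skap1, Ttll6 and Calcoco2 had no promoter peak in any library, and the nearest list gene with one in all 6 was Cbx1, a reader of methylated histone H3, with folds of 4.85, 7.85 and 4.89 (neonatal) and 15.3, 13 and 12.8 (adult). Around HoxC the stretch measured 387, 339 and 557 kb in the neonatal and 399 kb in each of the adult libraries. Next to HoxC, Smug1, a DNA repair glycosylase gene, had promoter folds of 7.95, 6.9 and 9.5 in adult replicates 1, 2 and 3 and 5.32 in neonatal replicate 2. For HoxA such a stretch held all 11 members in replicates 1 and 3 of both ages. For HoxD it held all 9 members in each neonatal library and 8 of 9 in each adult library, all but Hoxd1.

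Homeobox genes that border the clusters were unmarked as the Hox genes were. Evx1 next to HoxA and Evx2 next to HoxD, each beyond the 5′ end of its cluster, had no promoter peak in any library. Over the 16 flanking genes with a RefSeq entry, 5, 10 and 2 had a neonatal promoter peak, and 11 had one in each adult library. The shares over all protein-coding genes were 26.4%, 53.3% and 23.5% (neonatal) and 56.3%, 54.4% and 55.2% (adult). Mtx2, a mitochondrial import gene on the 3′ side of HoxD, had folds of 4.05 and 10.1 in neonatal replicates 1 and 2, no peak in neonatal replicate 3, and 15.5, 11.3 and 8.63 in the adult libraries. Lnpk on the 5′ side, which shapes the endoplasmic reticulum, had a fold of 6.33 in neonatal replicate 2 and 7.66, 8.41 and 8.62 in the adult libraries. Outside the 4 clusters, the 13 other antennapedia-class homeobox genes were marked at the promoter in 1, 4 and 1 cases (neonatal) and 1, 0 and 1 cases (adult), Gsx1, a forebrain patterning gene, in 5 of the 6 libraries.

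Genes whose products work with or on the Hox clusters were marked to differing extents. Beside these counts, the share of all protein-coding genes with a promoter peak was 26.4%, 53.3% and 23.5% in the neonatal libraries. In the adult libraries it was 56.3%, 54.4% and 55.2%, so neonatal replicate 2 stood near the adult libraries and neonatal replicates 1 and 3 stood lower. Of the 11 TALE homeodomain cofactors, which bind DNA beside Hox proteins, 5, 10 and 5 had a promoter peak at the neonatal age and 11, 10 and 10 at the adult age, with Pbx2, Pbx3, Meis1, Meis3 and Pknox2 marked in all 6. Of 15 Polycomb genes, whose products keep Hox genes silent, 12, 15 and 13 were marked in the neonatal libraries and 15 in each adult library, Ezh2, Suz12 and Rnf2 in all 6 and Eed and Cbx2 in 1 neonatal and 3 adult libraries. Of 8 Trithorax-side genes, whose products keep active Hox genes on, 4, 8 and 7 were marked in the neonatal and 8 in each adult library, Kmt2a in all 6. Of 9 genes for upstream activators, 3, 6 and 3 were marked in the neonatal libraries and 5, 5 and 4 in the adult libraries. Among these, the retinoic acid receptor genes Rarg (6 libraries), Rara (2 neonatal and 3 adult) and Rarb (2 neonatal and 2 adult) carried peaks, whereas Cdx2, Cdx4 and Gbx2 carried none.

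Among markers of other cell types, the oligodendrocyte list did not overlap between the ages. The microglial and endothelial lists did not either, each by 1 gene, and the neuronal, astrocyte and fibroblast or mural lists overlapped. No test was run on these counts. Over all protein-coding genes, 26.4%, 53.3% and 23.5% (neonatal) and 56.3%, 54.4% and 55.2% (adult) had a promoter peak. Adult-only genes made up 4.73% of them, or 22.1% without neonatal replicate 2. Of 6 oligodendrocyte markers, 1, 1 and 1 had a promoter peak at the neonatal age and 6, 6 and 6 at the adult age, with Mog, Mag, Mobp and Opalin among those that were adult-only. Neuronal markers were at 0, 4 and 1 of 6 in the neonatal and 4, 2 and 2 of 6 in the adult libraries, Slc17a7 adult-only and Snap25 with none. Astrocyte markers were at 1, 3 and 1 of 5 and at 2, 0 and 3 of 5, and Aqp4 had none. Microglial and endothelial markers were each at 0 of 5 in the neonatal and 1 of 5 in the adult libraries, the marked genes being Cx3cr1 and Pecam1. P2ry12, Csf1r, Tmem119 and Aif1, and Cldn5, Flt1, Tek and Cdh5, had none in any library. Markers of fibroblasts and mural cells were at 0, 3 and 0 of 6 and at 1, 2 and 1 of 6, with Dcn, Lum and Col3a1 at none. The part of other cell types in the Hoxd1 peak was not tested.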

How the data were processed

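H4K8ac ChIP-seq of 3 neonatal and 3 adult OPC samples was analysed, and the 6 inputs were not used here. Per the submitters' processing notes, Trim Galore, Bowtie2 2.4.5, SAMtools, deepTools, MACS2, DiffBind and ChIPseeker and the build GRCm38 were used; settings, and whether input entered peak calling, are not given in the sources used here. Per the file headers, each library's list, deposited by the authors, gives peaks with a score, a fold enrichment (linear ratio), −log10 of the p-value and q-value, and the nearest gene. The largest q-value per list was 0.0427 to 0.0489, and the lowest fold 1.98 to 2.51. The authors' deposited table of differential sites gives log2 fold changes, p-values and adjusted p-values; it names no direction. Positive was taken to mean higher in adult, because positive sites overlapped peaks of the adult lists in 85% to 96.7% of cases and neonatal ones in 10.3% to 27.8%.

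Starts were shifted to count from 1. Cluster edges, TSSs and promoter sequences came from RefSeq GRCm38.p6. A peak was inside a cluster with at least 1 bp of overlap. Ages were compared by exact two-sided permutation over the 20 arrangements of 3 against 3 libraries (Python 3.11.15, numpy 2.4.6, pandas 2.3.3, scipy 1.17.1, matplotlib 3.10.9), with a pseudocount of 1 on log2 counts, tested on simulated data. The labels call the replicates biological without naming animals, so p-values measure the spread between these samples. The authors' annotation decided which peaks were promoter peaks. Named members were those with an assigned peak in at least 3 libraries or a listed differential site in the promoter, and the first and last of each cluster, apart from a gene that is not reported here. Members and lists were chosen with earlier results of these data known. Alternatives covered the q-value limit, list length, peak merging, cluster edges, flank width, the rule tying peaks to genes and leaving out each library.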

Additional observations from a re-analysis of the deposited data

How the results depend on the processing

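The exact permutation test cannot pass 0.05 with 3 against 3 libraries, so the alternatives are read by direction and size. Limiting each list to its strongest 7353 peaks took these differences to 0: that in log2(peaks + 1) for HoxD (1.72 with all peaks) and for the 4 clusters together (1.44), that in percent of the clusters covered (0.273) and that in Hox genes with a promoter peak (1.33), while the number of adult libraries with a Hoxd1 promoter peak went from 3 to 0. No member peak of any library is that strong, so the ages cannot be compared there. With the strongest 31189 peaks the HoxD difference was 1.2 (exact permutation p = 0.1), but this matched the adult lists in length to neonatal replicate 2 only. The other ways of counting gave 1.39 to 2.11 for HoxD. With flanks of 100 kb the cluster minus flank difference of the 4 clusters together was -0.33 (exact permutation p = 0.3) in place of -0.66. For HoxD alone, with flanks of 500 kb, this difference had the opposite sign, at 0.48. Leaving out each library in turn gave differences in log2(peaks + 1) of 1.58 to 1.79 for HoxD, -0.53 to 0.53 for HoxA, 0 to 0 for HoxB and HoxC, and 1.18 to 1.97 for the 4 clusters together. With the same omissions, covered length of the 4 clusters together differed by 0.253 to 0.314 percentage points. Their cluster minus flank density differed by -0.82 to -0.53 on the log2 scale, and Hox genes with a promoter peak by 0.667 to 1.67. Pairing of the samples by replicate number was not seen, though 3 libraries per age cannot exclude it. Deviations from the group means of promoter marks over 21631 genes correlated at -0.0915, -0.105 and 0.064 between same-numbered libraries. With the replicate block the HoxD difference was again 1.72, at a sign-flip p of 0.25, the smallest that 3 pairs allow, and 0 of 3 neonatal libraries correlated best with its own number. The following were chosen after seeing the data: the strongest 31189 peaks, and counting assigned peaks outside the clusters. Depth limits all of this, since a peak missing from a short list may lie under its threshold.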

Other observations

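On the 3′ side of HoxA and HoxD, beyond the clusters, groups of adult peaks stood where neonatal libraries had none. Both windows were chosen after their values were seen, and no test is given. Adult-only regions made up 20.4% of merged regions genome-wide, or 29.1% without neonatal replicate 2, and every neonatal list was shorter than every adult list. Between 80 and 100 kb from the 3′ end of HoxA, in a stretch whose sites were mostly assigned to Halr1, a long noncoding RNA gene next to HoxA, adult replicates 1, 2 and 3 had 4, 4 and 6 peaks covering 4619, 4943 and 5561 bp. The strongest had folds of 10.5, 10.5 and 10.8, each above the Hoxd1 promoter fold of the same library. Neonatal replicates 1, 2 and 3 had 0 peaks there, although neonatal replicate 2 had 5 within 150 kb. In the authors' deposited table the sites assigned to Halr1 had log2 fold changes of 5.31, 3.02 and 2.54.

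Between 140 and 200 kb from the 3′ end of HoxD, beyond Mtx2, adult replicates 1, 2 and 3 had 13, 14 and 10 peaks covering 5784, 6166 and 8655 bp, with the strongest at folds of 8.31, 10.5 and 10.6, and the neonatal libraries had 0. In the authors' deposited table the largest value in this stretch was a log2 fold change of 6.32 (chr2:74925089-74925488), at the 98.9 percentile of listed sites. The flanks of HoxD were uneven in the adult libraries, with 16, 18 and 18 peaks in the 500 kb on the 3′ side and 2, 1 and 1 on the 5′ side. Around HoxC the adult libraries had 21, 19 and 20 peaks on the 3′ side and 32, 28 and 37 on the 5′ side.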
